A study of Mus musculus with 11 samples.

Results

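Hearts of mouse embryos that carried the Nkx2-5 Cre allele were compared with hearts that did not, to find genes that shifted by a similar amount whether 1 or both copies of Gata4 were floxed. All 11 arrays of the series were used, 8 with Nkx2-5 cre/+ and 3 with Nkx2-5 +/+, chosen by the genotype in their titles. The controls were Gata4 flox/+; Nkx2-5 +/+ (n = 3). The Cre groups were Gata4 flox/+; Nkx2-5 cre/+, which the submitters call double heterozygous (DH, n = 3), and Gata4 flox/flox; Nkx2-5 cre/+, which they call a conditional knockout (CKO, n = 5). Each array held RNA of pooled hearts at embryonic day 9.5. Every group, controls included, carried at least 1 floxed Gata4 allele. No source used here gives the number of hearts or litters per pool. The p-values therefore reflect the spread among these arrays, part of which may be technical.

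Nkx2-5 is a homeobox transcription factor of heart progenitors and heart muscle, and Gata4 is a zinc finger factor that binds many of the same heart genes. Cre is a recombinase that removes DNA between loxP sites, here in cells in which the Nkx2-5 locus is or was active. In both Cre groups the Cre allele, any change in the output of the Nkx2-5 locus, and the loss of at least 1 Gata4 copy in Cre-active cells come together, and they cannot be told apart. The Cre allele and its companions are the only labelled difference between DH and control hearts. Both Cre groups are set against the same 3 control arrays, so a deviation of those arrays moves both differences alike.

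Values are log2(intensity + 16) after quantile normalisation, and 45037 probe sets on 18193 named genes were tested in a limma model over all 11 arrays. "Cre minus control" is the mean of the DH and CKO group means minus the control mean. Heart muscle transcripts were high in every array, with Myl7 between 13.01 and 13.12 and Actc1 between 12.99 and 13.12. A pair of arrays stood apart. In CKO replicate 2 the 3' minus 5' difference of the actin control probe sets was 1.0, against 0.295 to 0.45 in the other arrays. In CKO replicate 3 the mean deposited intensity was 115.7, against 164.6 to 173.7 elsewhere. These 2 arrays also had the lowest mean correlations with their own group, 0.967 and 0.965, against 0.977 to 0.988 for the others. Their part in the results was not tested beyond leaving them out and weighting arrays by their quality.

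In the Cre hearts a small set of genes rose and a smaller set fell. The laminin receptor subunit Itga6, the Nodal co-receptor Cfc1, the progenitor factor Isl1, the peptide hormone gene Cck and the imprinted non-coding RNA Meg3 rose, and the hyaluronan receptor Cd44, the integrin Itga4 and the retinaldehyde dehydrogenase Aldh1a1 fell. In all, 65 probe sets (0.144% of those tested) passed an adjusted p of 0.05 by limma, 48 higher (0.107%) and 17 lower (0.0377%). They stood on 48 named genes and 6 probe sets without a gene name. At an unadjusted p of 0.05, 2783 probe sets (6.18%) passed. With 1 probe set per gene, 38 genes (0.209%) were called, 23 higher (0.126%) and 15 lower (0.0824%). In 55 of the 65 probe sets all 8 Cre arrays lay on one side of all 3 controls, which was so for 999 probe sets (2.22%) overall. The 65 were chosen by the same difference in the same arrays, so this is a description and no further support.

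Every one of the 65 shifts was larger in the CKO group than in the DH group. The median rise of the 48 higher probe sets was 0.43 in DH and 1.03 in CKO, and the median of the 17 lower ones was -0.42 in DH and -1.04 in CKO. The ratio of the DH shift to the CKO shift had a median of 0.44 and ran from 0.0506 for Igfbp3 to 0.987 for Itga6. All 65 were also called in CKO minus control, where 632 probe sets (1.4%) passed. None was called in DH minus control, where limma called 0 of 45037 probe sets (0%) and 1435 (3.19%) passed an unadjusted p of 0.05. Of the 65, 56 had an unadjusted p under 0.05 in DH minus control. The 2 differences share their controls and the 65 were chosen with both, so these values are a description and no test of the DH group.

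The count of 65 depended on single arrays. Without 1 control array it was 10, 14 or 13 (replicates 1, 2 and 3). It was 24 without DH replicate 1, 28 without DH replicate 3 and 30 without CKO replicate 5. It was 117 without CKO replicate 2 and 114 without CKO replicate 3. The split between rises and falls also moved with the scaling, from 48 and 17 to 20 and 10 when arrays were centred on their medians and to 2 and 3 on the deposited scale.

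**Figure D1:**
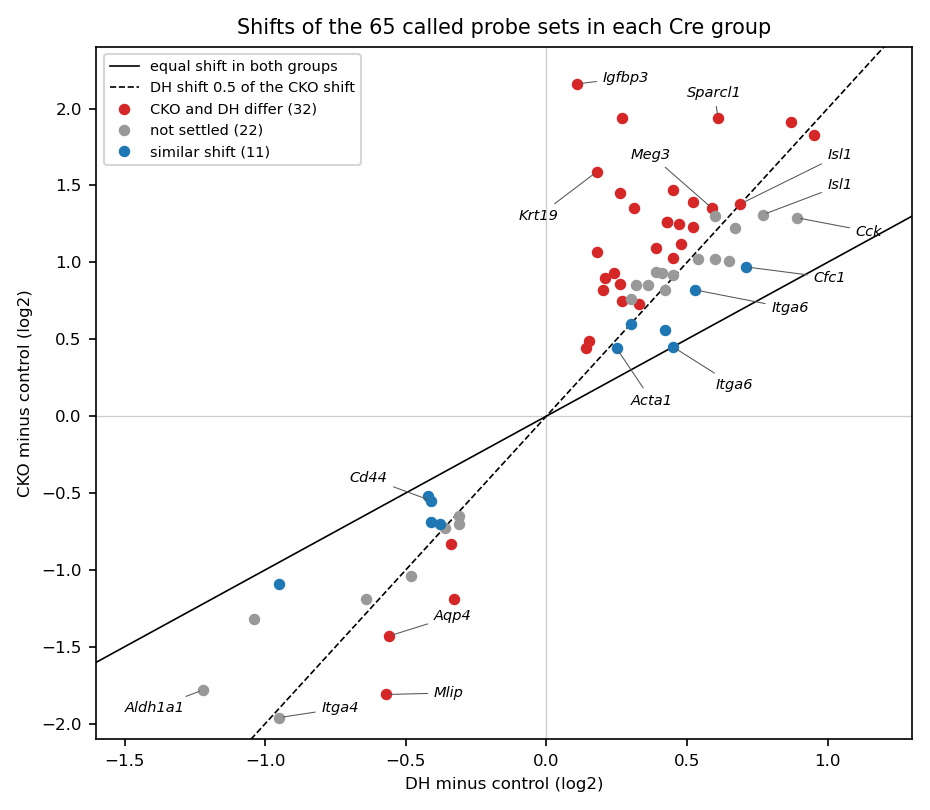
The 65 probe sets called in Cre minus control, each point 1 probe set, with DH minus control (log2) on the x axis and CKO minus control (log2) on the y axis. Both axes use the same 3 control arrays. All points lie on the CKO side of the solid line of equal shift, and the 11 blue points of similar shift lie between it and the dashed line, where the DH shift is 0.5 of the CKO shift.

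A shift was called similar when the probe set was called in Cre minus control, the smaller group shift was at least 0.5 of the larger in the same direction, and the 90% interval of CKO minus DH lay within 0.585 of 0, that is within 1.5-fold. By that rule 11 of the 65 probe sets (0.0244% of all tested) were similar, 6 higher and 5 lower. Another 32 differed between the Cre groups, with an adjusted p under 0.05 by limma for CKO minus DH, a comparison in which 157 probe sets (0.349%) passed. The remaining 22 were settled neither way. The limit of 0.585 was larger than the whole shift of most of the 11, such as Acta1 (0.35) and Cd44 (-0.48). It therefore bore mainly on larger shifts. Among those it kept from the similar class were Cck, Aldh1a1 and 6030498E09Rik, with ratios of 0.69, 0.68 and 0.79. The likeness of the 11 is set by the rule and is not tested. For some of them the interval left out 0, on the side of a larger CKO shift. It ran from 0.09 to 0.28 for Acta1, 0.15 to 0.44 for Sphkap and 0.03 to 0.48 for Cfc1. It ran from 0.15 to 0.45 for the Itga6 probe set that rose by 0.68, -0.50 to -0.16 for Acaa2 and -0.47 to -0.11 for Abcc9. For the rest it held 0. Just inside the limit of 0.5 stood Sphkap at 0.51 and Acaa2 at 0.54, and just outside stood Dmpk and Heatr5b, both at 0.49. At the adjusted p of 0.05, Cxcl12 and Aldh1b1 lay just inside at 0.0451 by limma, and the matrix linker gene Hapln1 lay just outside at 0.0505.

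The 11 probe sets stood on 10 genes. Itga6 (2 probe sets), Cfc1, Slco3a1, Sphkap and Acta1 rose, and Acaa2, Cd44, Abcc9, Prss23 and 4930512H18Rik fell. RefSeq promoter windows, the 250 bases before the gene's start on build GRCm38.p6, were at hand for 7 of the 10. Each window was searched on both strands for GATAA, the core of GATA factor sites, for TNAAGTG, the core of NKX2-5 sites, and for ACGTG, the core of hypoxia response elements. GATAA and TNAAGTG can overlap at their ends. GATAA was found in 3 of the 7 windows (42.9%), against 17.4% of the 14452 windows of all genes tested. ACGTG was found in 1 (14.3%, against 19.8%) and TNAAGTG in 0 (against 8.36%). A match is a description of the letters and not a binding site. The 3 windows with a GATAA match, those of Cfc1 (chr1:34535398-34535647, plus strand), Cd44 (chr2:102901666-102901915, minus strand) and Prss23 (chr7:89527188-89527437, minus strand), are printed 5' to 3' because the floxed gene encodes a GATA factor. Capitals mark GATAA or its reverse complement TTATC, and in Cd44 also ACGTG.
Cfc1: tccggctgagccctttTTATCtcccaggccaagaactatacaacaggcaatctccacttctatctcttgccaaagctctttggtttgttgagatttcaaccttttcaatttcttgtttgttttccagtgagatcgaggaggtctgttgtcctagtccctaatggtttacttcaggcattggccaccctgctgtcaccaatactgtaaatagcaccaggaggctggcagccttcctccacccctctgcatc
Cd44: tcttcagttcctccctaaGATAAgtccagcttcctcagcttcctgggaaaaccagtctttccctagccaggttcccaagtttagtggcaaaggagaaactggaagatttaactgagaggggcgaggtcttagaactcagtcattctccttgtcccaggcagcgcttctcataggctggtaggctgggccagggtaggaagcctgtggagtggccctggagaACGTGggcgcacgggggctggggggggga
Prss23: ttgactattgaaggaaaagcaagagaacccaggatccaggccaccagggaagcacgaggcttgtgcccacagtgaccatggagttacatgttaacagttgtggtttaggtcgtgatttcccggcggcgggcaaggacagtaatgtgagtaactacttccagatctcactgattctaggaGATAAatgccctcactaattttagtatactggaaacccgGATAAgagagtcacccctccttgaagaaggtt

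Itga6 encodes the alpha 6 subunit of laminin-binding integrins. Its representative probe set read 10.71, 10.81 and 10.68 in controls, 11.25, 11.16 and 11.12 in DH, and 11.21, 11.20, 11.05, 11.35 and 11.11 in CKO. All 8 Cre arrays were above the 3 controls, and the CKO arrays spanned the range of the DH arrays. The rise was 0.45 (SE 0.067, 1.37-fold, adjusted p = 0.0121 by limma), with 0.45 in each Cre group, and the 90% interval of CKO minus DH ran from -0.12 to 0.13. The second Itga6 probe set rose by 0.68 (SE 0.082, adjusted p = 0.0026 by limma), with 0.53 in DH and 0.82 in CKO. The call of the representative probe set was lost when any 1 control array or DH replicate 1 was left out.

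Cfc1 encodes Cryptic, a membrane-bound co-receptor for Nodal that acts in left-right patterning. It read 6.08, 6.37 and 6.08 in controls, 6.99, 6.79 and 6.89 in DH, and 7.20, 7.21, 7.22, 6.88 and 7.21 in CKO. All 8 Cre arrays were above the 3 controls, and of the CKO arrays CKO replicate 4 alone fell within the DH range. The rise was 0.84 (SE 0.12, 1.79-fold, adjusted p = 0.00859 by limma), 0.71 in DH and 0.97 in CKO. The call was lost without control replicate 1 or 3.

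The other similar rises were smaller. Acta1, the skeletal muscle alpha-actin that embryonic heart muscle also makes, read 11.66, 11.76 and 11.74 in controls, 12.08, 11.92 and 11.92 in DH, and 12.14 to 12.20 in the 5 CKO arrays. The 3 groups did not overlap, and the rise was 0.35 (SE 0.051, adjusted p = 0.0113 by limma), 0.25 in DH and 0.44 in CKO. Sphkap, an anchoring protein of protein kinase A, rose by 0.45 (0.30 in DH and 0.60 in CKO), with controls at 9.70 to 9.96, DH at 10.08 to 10.16 and CKO at 10.36 to 10.64. Slco3a1, an organic anion transporter, rose by 0.49 (0.42 and 0.56), with controls at 8.02 to 8.24 and all 8 Cre arrays at 8.55 to 8.79. All 3 Slco3a1 probe sets had the 8 Cre arrays above the controls, and 1 of them was called. The Acta1 call was lost without any 1 control array. The Sphkap and Slco3a1 calls were lost without any 1 control or DH array or without CKO replicate 5, and that of Slco3a1 also without CKO replicate 1.

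Cd44, the cell surface receptor for the matrix sugar hyaluronan, fell in both Cre groups. It read 9.23, 9.44 and 9.46 in controls, 8.99, 8.95 and 8.96 in DH, and 8.79, 8.83, 8.75, 8.94 and 8.81 in CKO. No DH or CKO array reached a control, and the DH arrays lay at the upper end of the Cre range. The fall was -0.48 (SE 0.077, 1.39-fold, adjusted p = 0.022 by limma), -0.41 in DH and -0.55 in CKO. The 4 Cd44 probe sets all had lower means, from -0.67 to -0.17, of which 2 separated the Cre arrays from the controls. The call was lost without any 1 control or DH array or without CKO replicate 5.

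Acaa2, the mitochondrial thiolase of the last step of fatty acid beta-oxidation, read 8.77, 8.63 and 8.73 in controls, 8.28, 8.34 and 8.39 in DH, and 7.86 to 8.16 in CKO. It fell by 0.54, with -0.38 in DH and -0.70 in CKO (adjusted p = 0.0282 by limma), and the 3 groups did not overlap. The Acaa2 call was lost without any 1 control or DH array or without CKO replicate 5. Its other probe sets were not called, with -0.25 and -0.28 in DH beside -0.55 and -0.84 in CKO. Of 19 measured genes of oxidative metabolism, 18 had lower means in Cre hearts but 0 were called, and their median was -0.12 (-0.05 in DH and -0.19 in CKO). Over all 18193 genes, 9799 had lower means, 8394 had higher means and 0.209% were called.

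Abcc9 and Prss23 were chosen after their values were seen, since the similar probe set is not the one that represents the gene. Abcc9, the sulphonylurea receptor subunit of ATP-sensitive potassium channels, fell by 0.55 on 1 of its 3 probe sets (-0.41 in DH and -0.69 in CKO). All 3 Abcc9 probe sets had every Cre array below every control. The others were not called and did not meet the rule for a similar shift. They had -0.37 and -0.29 in DH beside -0.97 and -0.82 in CKO. Prss23, a serine protease, fell by 0.47 on 1 of 3 probe sets (-0.42 and -0.52), and the others had means of -0.55 and -0.21. The transcript 4930512H18Rik, also named after its values were seen, fell by 1.02 (SE 0.16, adjusted p = 0.022 by limma), -0.95 in DH and -1.09 in CKO, from controls at 5.76 to 5.93 to Cre arrays at 4.28 to 5.12. Its level is close to 4, the lowest value the scale allows, so its size depends on the offset, with -1.74 at an offset of 1 and -0.46 at 64. The call was lost without any 1 control array, DH replicate 1 or CKO replicate 5, and with an offset of 1.

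**Figure D2:**
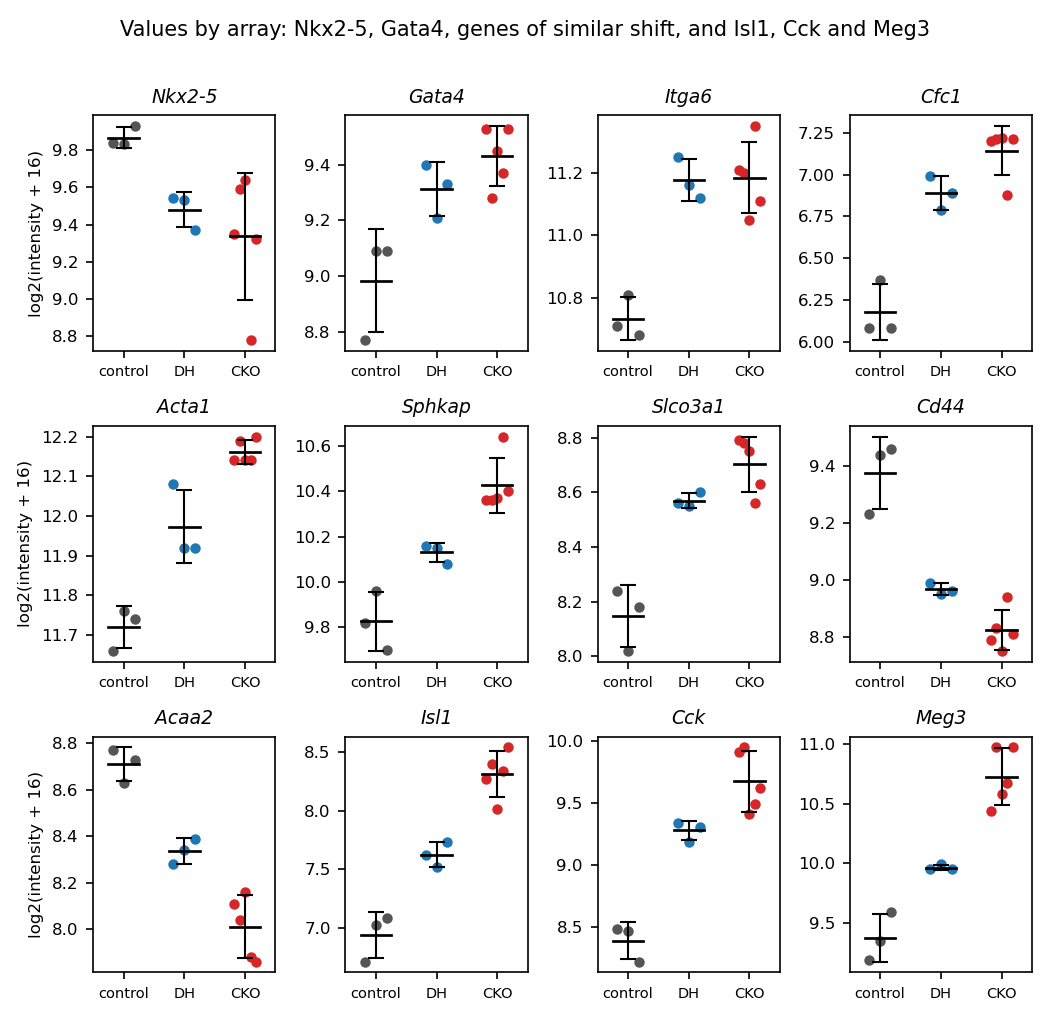
Values of 12 genes in each array, as log2(intensity + 16) after quantile normalisation on the y axis of each panel, with control (3 arrays), DH (3) and CKO (5) on the x axis. Points are arrays, long bars group means and error bars 1 SD, and the y axes differ and do not start at 0. Itga6 sits at the same height in DH and CKO, while Acta1, Isl1 and Meg3 step up from control to DH to CKO without overlap.

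Other called genes rose in both Cre groups but did not meet the rule for a similar shift. Cck, the gene of the peptide hormone cholecystokinin, was named after its values were seen. It read 8.48, 8.47 and 8.22 in controls, 9.34, 9.19 and 9.31 in DH, and 9.41 to 9.95 in CKO, so the groups did not overlap. Its rise was 1.09 (SE 0.11, 2.13-fold, adjusted p = 0.0011 by limma), 0.89 in DH and 1.29 in CKO. The interval of CKO minus DH, 0.18 to 0.61, reached just past the limit for a similar shift. That difference was not called (adjusted p = 0.209 by limma). The ratio of its DH shift to its CKO shift was 0.69, above those of Sphkap (0.51) and Acaa2 (0.54), which met the rule. Cck kept its call whichever 1 array was left out.

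Isl1, the LIM homeodomain factor that marks second heart field progenitors, read 6.71, 7.02 and 7.08 in controls, 7.62, 7.52 and 7.73 in DH, and 8.27, 8.40, 8.01, 8.34 and 8.54 in CKO. The 3 groups formed separate steps. Its rise was 1.03 (SE 0.12, adjusted p = 0.00195 by limma), 0.69 in DH and 1.38 in CKO, and the Cre groups differed by 0.69 (adjusted p = 0.0308 by limma). The second Isl1 probe set rose by 1.04, with 0.77 in DH and 1.31 in CKO. Isl1 was the only one of 18 measured second heart field genes called in Cre minus control, and the median of that list was 0.08 (0.14 in DH and 0.07 in CKO).

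Meg3, a long non-coding RNA made from the maternal copy of the Dlk1-Meg3 domain, read 9.19, 9.35 and 9.59 in controls, 9.95, 9.99 and 9.95 in DH, and 10.44, 10.97, 10.58, 10.67 and 10.97 in CKO. Its rise was 0.97 (SE 0.11, adjusted p = 0.00195 by limma), 0.59 in DH and 1.35 in CKO. All 11 Meg3 probe sets had higher means, from 0.37 to 0.97, and 6 were called. Dlk1, which the same domain expresses from the paternal copy, rose by 0.78 on 1 probe set (0.54 in DH and 1.02 in CKO), while its other probe set, close to the lowest value of the scale, had a mean difference of -0.06. Dlk1 was named after its values were seen.

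Other rises differed between the Cre groups. Igfbp3, which binds insulin-like growth factors, read 6.36 to 6.88 in controls, 6.71 to 6.86 in DH and 8.27 to 9.41 in CKO, with shifts of 0.11 and 2.16. Krt19, an epithelial and mesothelial keratin, had shifts of 0.18 in DH and 1.59 in CKO, and its DH arrays overlapped the controls. The matricellular gene Sparcl1 had shifts of 0.61 and 1.94, with all 8 Cre arrays above the controls. CKO minus DH was 2.05 for Igfbp3 (adjusted p = 0.000267), 1.40 for Krt19 (1.69e-05) and 1.33 for Sparcl1 (0.00206), all by limma. Among the falls, the muscle lamin-interacting gene Mlip had -0.57 and -1.81, the water channel Aqp4 -0.56 and -1.43, and the type II collagen gene Col2a1 -0.34 and -0.83. CKO minus DH was -1.24 for Mlip (adjusted p = 0.00695), -0.87 for Aqp4 (0.0136) and -0.49 for Col2a1, all by limma. Col2a1 passed only just, with an adjusted p that rounds to 0.05 by limma. Averaged over its probe sets, Mlip had -0.56 in place of -1.19, without a call, and Aqp4 -0.65 in place of -0.99 in Cre minus control, and Aqp4 had -0.57 with an offset of 64. The calls of Mlip and Aqp4 in Cre minus control were lost without any 1 control array, that of Col2a1 also without DH replicate 2 or 3, and that of Igfbp3 without any 1 control or DH array or CKO replicate 5.

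Nkx2-5 itself was measured by 1 probe set. It read 9.84, 9.83 and 9.93 in controls, 9.54, 9.53 and 9.37 in DH, and 9.35, 9.59, 9.64, 8.78 and 9.32 in CKO. All 8 Cre arrays were below the 3 controls, and CKO replicate 4 was the lowest. The difference was -0.46 (SE 0.14, 1.38-fold), -0.39 in DH and -0.53 in CKO, and did not pass (adjusted p = 0.424 by limma). It passed when arrays were weighted by their quality (-0.51, adjusted p = 0.0291 by limma) and without CKO replicates 2 and 3 (-0.56), in 2 of 23 alternatives, over which the adjusted p ran from 0.0291 to 1. No source used here says how the Cre allele changes the Nkx2-5 transcript or where the probe set lies in it.

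Gata4 was higher, not lower, in the Cre arrays. Its representative probe set read 8.77, 9.09 and 9.09 in controls, 9.40, 9.21 and 9.33 in DH, and 9.28 to 9.53 in the arrays labelled CKO, with differences of 0.33 and 0.45 and an adjusted p of 0.176 by limma for Cre minus control. The second Gata4 probe set had 0.41 and 0.08. No source used here places either probe set inside or outside the floxed segment, so their signal does not check the labels. The cyclin gene Ccnd2 had -0.02 in DH and -0.48 in CKO on its representative probe set, a difference between the Cre groups that passed narrowly (adjusted p = 0.0497 by limma). On another Ccnd2 probe set CKO minus DH was -0.48 (adjusted p = 0.00894 by limma), and on the rest it did not pass. Cre hearts had lower means on 7 of 7 Ccnd2 probe sets, with 0 called.

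Genes beside Nkx2-5 on chromosome 17 can be inherited with the Cre allele. Neighbours were taken by gene order, and how far joint inheritance reaches in these embryos was not tested. Of the 10, 25 and 50 nearest measured genes on each side (20, 50 and 100 genes), 0 were called in Cre minus control, against 0.209% of all genes. Their median differences were -0.06, -0.04 and -0.04, against -0.01 for all genes. Only Mcrip2, 24 genes away and named after its values were seen, had all 8 Cre arrays below the controls, with a difference of -0.49 (adjusted p = 0.254 by limma). With array weights, or without CKO replicates 2 and 3, 1 neighbour was called.

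Genes that are known to need Nkx2-5 in the heart had lower and higher means. Of 16 such genes, 0 were called in Cre minus control (against 0.209% of all genes) and 8 had lower means, and the median was -0.01 (-0.03 in DH and -0.00 in CKO). Of these 16, 4 (25%) had all 8 Cre arrays below the controls, against 1.56% of all genes, and 0 had them above, against 1.2%. These shares are a description and no test, since the list was chosen with earlier results of these data known. The list also stood higher on the scale, with mean levels of 9.43 to 9.66 in controls against 6.38 to 6.39 for all genes. The part of level in these shares was not tested. With arrays weighted by their quality, 4 of the 16 were called, when 226 of all 18193 genes were. Without CKO replicates 2 and 3 it was 1, when 115 of all genes were, and with each gene's probe sets averaged it was 1, when 54 were. Hopx, a small homeodomain protein of heart muscle, came nearest to a call. It read 10.68, 10.73 and 10.78 in controls, 10.34, 10.59 and 10.25 in DH, and 10.05 to 10.34 in CKO. The difference was -0.44 (SE 0.083, adjusted p = 0.054 by limma), and both Hopx probe sets separated the Cre arrays from the controls. It passed without DH replicate 2 or CKO replicate 2 or 3. The muscle gene Smpx had -0.31 (-0.29 in DH and -0.34 in CKO) and the growth regulator Mycn had -0.30 (-0.17 and -0.42), each with all 8 Cre arrays lower and neither called. The 3 Mycn probe sets ran from -0.30 to 0.30, 2 lower and 1 higher. Only 1 of them separated the Cre arrays from the controls. Nppa and Nppb, natriuretic peptide genes named after their values were seen, overlapped between the groups at -0.04 each.

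Of 10 genes known to be held back by Nkx2-5, Isl1 alone was called, and the median was 0.04. Bmp4, a growth factor of that list, read 7.72, 7.67 and 7.81 in controls, 8.08, 8.43 and 8.18 in DH, and 7.87 to 8.27 in CKO. All 8 Cre arrays were higher and DH was as high as CKO (0.50 and 0.36), but the difference of 0.43 did not pass (adjusted p = 0.232 by limma). Id1, a target of BMP signalling, had 0.38 (0.36 in DH and 0.41 in CKO) with all 8 arrays higher and an adjusted p of 0.103 by limma. Of 20 BMP and TGF-beta genes, 0 were called in Cre minus control and 15 had higher means, with a median of 0.11 (0.07 and 0.18), when 8394 of all 18193 genes had higher means and 0.209% were called.

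Markers of the proepicardium, which gives rise to the epicardium, and of mesothelium were the list with the lowest median in both Cre groups. The median over 14 genes was -0.48 (-0.41 in DH and -0.63 in CKO), against -0.01 for all genes (-0.00 and -0.02). Of the 14, 11 had lower means and 5 (35.7%, against 1.56% of all genes) had all 8 Cre arrays below the controls, while Aldh1a1 was called lower and Krt19 higher. The list was chosen with earlier results of these data known, so these shares are a description and no test. The mean level over the list lay between 7.27 and 7.36 in controls, 6.67 and 7.06 in DH, and 6.48 and 7.25 in CKO, so no Cre array reached a control. All genes had a mean level of 6.38 to 6.39 in controls, and the part of level in the share of 35.7% was not tested. In pooled hearts, fewer cells of a type and less RNA per cell cannot be told apart, and how much of this tissue each dissection kept was not tested.

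Aldh1a1, a retinaldehyde dehydrogenase, read 6.10, 6.09 and 6.23 in controls, 4.63, 5.36 and 4.79 in DH, and 4.07, 4.02, 4.02, 5.44 and 4.23 in CKO. All 8 Cre arrays were lower, 3 of the CKO arrays stood almost at the lowest value of the scale, and CKO replicate 4 lay above every DH array. The fall was -1.5 (SE 0.26, 2.83-fold, adjusted p = 0.0349 by limma), -1.22 in DH and -1.78 in CKO. With 3 CKO arrays near the floor its size depends on the offset, with -3.05 at an offset of 1 and -0.68 at 64. The call was lost without any 1 control array, DH replicate 1 or 3, or CKO replicate 1 or 5, and with an offset of 1.

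Upk1b, a uroplakin of mesothelium, read 6.75, 6.78 and 7.02 in controls, 5.84, 6.37 and 5.73 in DH, and 5.98, 5.47, 5.84, 6.27 and 5.71 in CKO. The DH and CKO arrays overlapped, with -0.87 and -1.0. The difference of -0.93 missed the threshold (SE 0.17, adjusted p = 0.0519 by limma), and all 4 Upk1b probe sets had every Cre array below every control. It passed without DH replicate 2 or without CKO replicate 2, 3 or 4.

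The other markers of the list were named after their values were seen. The epicardial factors Tcf21 (-0.61 in DH and -1.31 in CKO) and Tbx18 (-0.84 and -1.17) and the mesothelial gene Lrrn4 (-0.54 and -1.20) had lower means in both groups and were not called. Only CKO replicate 4, at 8.27, reached the controls for Tbx18. Wt1, a zinc finger factor of the same cells, differed in sign between the groups, at -0.41 in DH and 0.23 in CKO. The epithelial keratin Krt8 had 0.18 and 0.71. Msln, at -0.41 and -0.21, also lies among the 50 nearest genes to Nkx2-5.

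Itga4, the integrin subunit that binds Vcam1 and fibronectin, read 7.24, 7.55 and 7.20 in controls, 5.96, 6.80 and 6.38 in DH, and 4.98, 4.94, 5.48, 6.18 and 5.28 in CKO. Its fall was -1.45 (SE 0.23, 2.74-fold, adjusted p = 0.0225 by limma), -0.95 in DH and -1.96 in CKO. The 8 Cre arrays lay below the controls on 4 of 5 Itga4 probe sets, and all 5 had lower means. CKO replicate 4 read highest of the CKO arrays for Itga4, Aldh1a1, Upk1b, Tcf21 and Tbx18. The Itga4 call was lost without any 1 control array, without DH replicate 1 or 3, without CKO replicate 5, and with an offset of 1. The difference was -0.94 with an offset of 64 and -0.85 averaged over its probe sets.

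**Figure D3:**
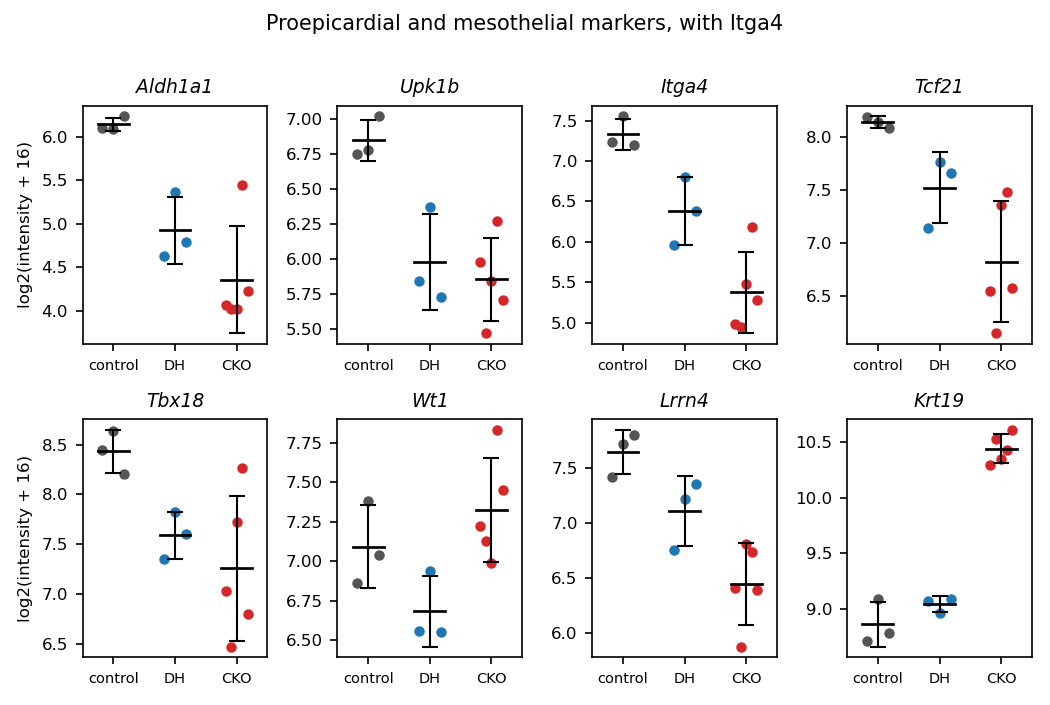
Values of 7 proepicardial and mesothelial markers and of Itga4 in each array, as log2(intensity + 16) after quantile normalisation, for control (3 arrays), DH (3) and CKO (5). Points are arrays, long bars means and error bars 1 SD, and the y axes differ and do not start at 0. Aldh1a1, Upk1b, Itga4, Tcf21 and Lrrn4 have all Cre arrays below the controls, Tbx18 has 1 CKO array among them, Wt1 overlaps, and Krt19 is high in the CKO arrays.

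The list of genes that low oxygen induces stood near 0 in DH. Of 20 genes of hypoxia and glycolysis, with 1 probe set per gene, 0 were called in Cre minus control. In CKO minus control 15 were called higher (1.2% of all genes) and in CKO minus DH 10 (0.418% of all genes), with medians of 0.03 in DH and 0.69 in CKO. Bnip3, a mitophagy receptor that low oxygen induces, had 0.05 and 0.79, and the prolyl hydroxylase Egln3 had 0.13 and 1.54. Both passed in Cre minus control without CKO replicate 3, and Bnip3 also without CKO replicate 4. Slc2a3 and Slc2a1, the glucose transporters GLUT3 and GLUT1, were called in Cre minus control on 2 probe sets each. Those of Slc2a3 had 0.48 and 0.47 in DH beside 1.12 and 1.25 in CKO, and those of Slc2a1 had 0.14 and 0.15 beside 0.44 and 0.49. Slc2a3 is on no list and was named after its values were seen.

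Cell cycle lists had no median shift in DH. Of 24 DNA replication genes, 24 had lower means in Cre minus control and 0 were called, with medians of -0.00 in DH and -0.30 in CKO. For example, the sliding clamp Pcna had 0.02 and -0.38. Of 24 genes of G2 and mitosis, 23 had lower means and 0 were called, with medians of -0.02 and -0.30. Lower means were found for 9799 of all 18193 genes, and 0.209% of all genes were called. Of 19 p53 and DNA damage genes and 12 interferon genes, lists chosen because Cre can also cut DNA outside loxP sites, 0 were called, with medians of -0.05 and -0.00. The p53 target Btg2 had 0.07 in DH and 0.79 in CKO.

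Among other cell types, 16 of 18 endothelial markers had higher means, against 8394 of all 18193 genes, with medians of 0.10 in DH and 0.37 in CKO. Clec14a rose (0.26 and 1.45) and Tek, the angiopoietin receptor, fell (-0.31 and -0.65), with all 8 Cre arrays below the controls for Tek. Leaving out any 1 control or DH array, or CKO replicate 1 or 5, ended both calls, and CKO replicate 4 also that of Clec14a. Of the 14 foregut and pharyngeal endoderm markers, 10 had higher means, with medians of 0.15 in DH and 0.10 in CKO. Krt18 and Cxcl12 were called higher, against 0.126% of all genes, and Epcam and Foxa2 had differences of 0.05 and 0.08. The part of endoderm in these values was not tested. The calls of Krt18 and Cxcl12 were lost without any 1 control array, DH replicate 1 or 3, or CKO replicate 1 or 5, and that of Cxcl12 also without DH replicate 2 or CKO replicate 4. No erythroid, macrophage, liver and yolk sac, neural crest or sex-linked marker was called, with list medians of 0.14, -0.03, -0.04, 0.05 and 0.18. The macrophage gene Lyz2 had -0.77 in DH and -0.42 in CKO, with all 8 Cre arrays below the controls, and was not called. Neither the part of the endothelial nor that of the proepicardial markers in other differences was tested.

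The sarcomere list of 24 genes had medians of 0.01 and 0.00 and 1 call, Acta1. The slow myosin Myh7 had 0.11 and 0.27 with all 8 Cre arrays higher and was not called. Ribosomal protein genes had medians of -0.01 and -0.02. With median centring the CKO medians of the sarcomere and ribosomal lists were both -0.14, that of the second heart field list -0.01 and that of the genes held back by Nkx2-5 -0.08, when all genes had -0.08. Of the 17 measured growth and imprinted genes, 2 were called higher, Igfbp3 and Meg3, against 0.126% of all genes, and the median was 0.10. Of the 20 extracellular matrix genes, Sparcl1 and Itga6 were called higher and Itga4 lower, against 0.126% and 0.0824% of all genes.

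**Figure D4:**
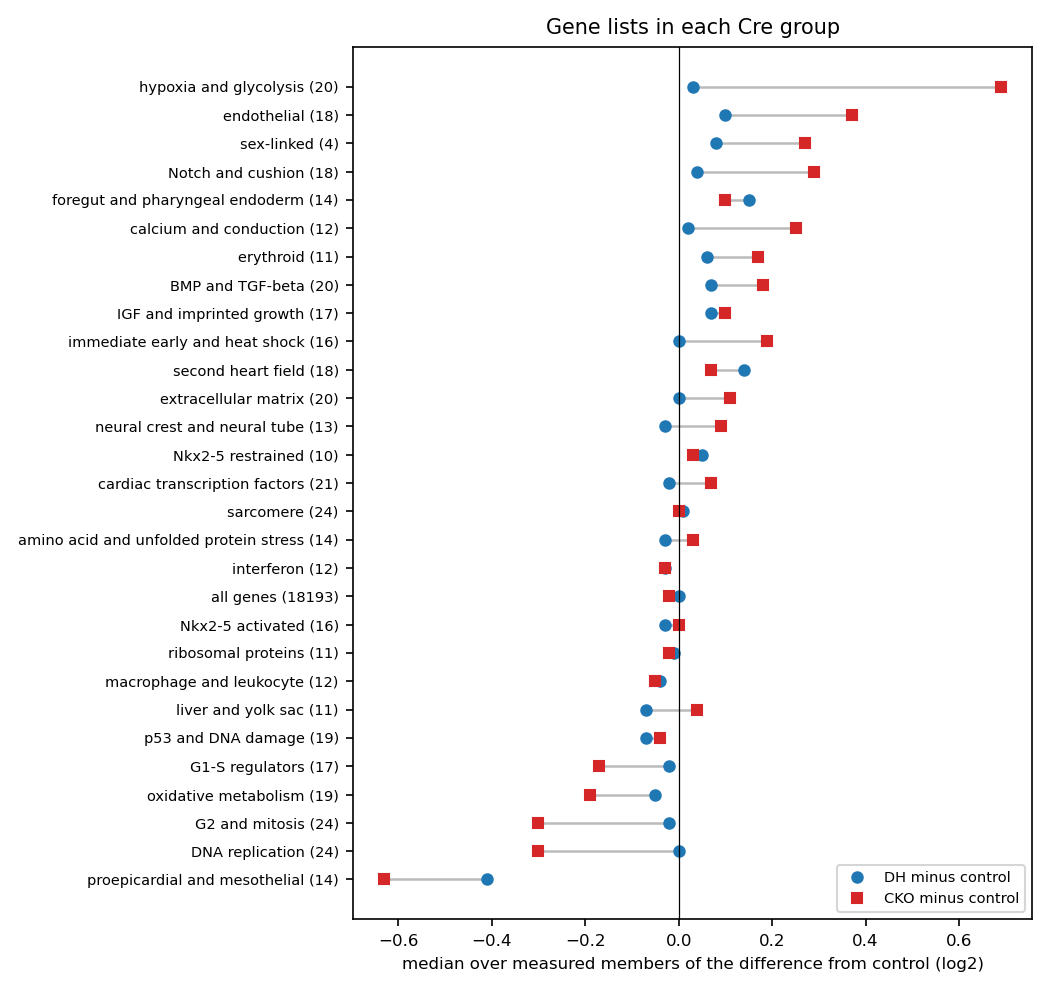
Median difference from control (log2, x axis) over the measured members of each gene list, with the number of members in brackets, for DH (blue circles) and CKO (red squares). The proepicardial and mesothelial list is low in both groups, at -0.41 and -0.63, whereas hypoxia and glycolysis (0.03 and 0.69) and DNA replication (-0.00 and -0.30) lie near 0 in DH.

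Among the called probe sets, the largest rises were on 2 without a gene name in the annotation used here. Both rose by 1.39, with 0.95 and 0.87 in DH and 1.83 and 1.91 in CKO, and all 8 Cre arrays were above the controls for both. These unnamed probe sets, Cck, both Itga6 probe sets, 1 Isl1 probe set, the membrane-shaping gene Reep2 and the transcript 6030498E09Rik were the 8 called in DH minus control when arrays were weighted by their quality. In that setting Reep2 had -0.91 in DH and -0.09 in CKO. Without CKO replicates 2 and 3, Cck and the unnamed probe set with 0.95 were called in DH minus control.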

How the data were processed

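RNA of 11 pools of mouse hearts, amplified from 50 ng, was measured on 1-colour arrays, 1 array per sample. The deposited values are linear intensity, 1 value per probe set and array, summarised by the authors with PLIER per the submitters' processing notes. How background was removed, how arrays were scaled and which version ran stand in no source used here. Detection calls were not used here. The 64 control probe sets were left out of the 45101, which left 45037 in every test with no filter. The values were turned to log2(intensity + 16), which shrinks the changes of dim genes and sets a lowest value of 4. Array medians spanned 0.465, over a limit of 0.2, so the arrays were quantile normalised.

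All 11 arrays entered 1 linear model with a mean for each genotype (limma 3.58.1, R 4.3.3) and an intensity trend in the moderation, and p-values were adjusted by Benjamini-Hochberg over all probe sets. Summaries used Python 3.11.15 with pandas 2.3.3. The array number limits the precision. Gene names came from the platform annotation, in which 34945 probe sets had 1 symbol, 932 several and 9160 none. Each gene was represented by its probe set of highest mean, passing over those that match several transcripts where another exists.

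The genes named are Nkx2-5, Gata4 and Ccnd2, the genes of similar shift, the 3 called genes in each direction with the largest CKO minus DH among those where that difference was called too (clone-like names passed over), and up to 3 members of smallest p from each list. Heart muscle markers apart, all other genes were named after their values were seen. The members and the 28 lists, 428 of whose 457 genes were measured, were chosen with earlier results of these data known. On data simulated for Cre minus control over 45037 probe sets, 22.4%, 74.6% and 98.5% of changes of 0.5, 1 and 1.5 were called, 20.9%, 71.6% and 83.3% also met the rule for a similar shift, and 9 unchanged probe sets were called. Same-numbered replicates did not pair, with correlations of their deviations between -0.0557 and 0.15. Alternatives changed the scale, offset, filter, grouping, moderation, array weights, probe set of a gene, limits of similarity and arrays used.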

Additional observations from a re-analysis of the deposited data

Results flagged for a closer look

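Among 41 genes examined in the group of 5 CKO arrays, 5 had 1 array far from the others, by a gap test that chance passes in about 1 group of 20. CKO replicate 4 read 5.44 for Aldh1a1 (others 4.02 to 4.23), 6.88 for Cfc1 (others 7.20 to 7.22) and 10.64 for Sphkap (others 10.36 to 10.40). CKO replicate 2 read 11.48 for Ccnd2 (others 11.03 to 11.14), and CKO replicate 3 read 8.10 for Mlip (others 7.06 to 7.32).

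The shift from control differed between the Cre groups by limma, with an adjusted p under 0.05 for CKO minus DH over all probe sets, for 17 of the genes. CKO minus DH was 2.05 for Igfbp3, 1.40 for Krt19, 1.33 for Sparcl1, 1.19 for Clec14a, 0.89 for Cxcl12, 0.82 for Kank4, 0.76 for Meg3, 0.69 for both Isl1 and Mtus2, 0.62 for Armh4, 0.60 for Dact1 and 0.58 for Lmod3. It was -1.24 for Mlip, -0.87 for both Aqp4 and 1110032F04Rik, -0.49 for Col2a1 and -0.46 for Ccnd2.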

How the results depend on the processing

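The calls depended on the scaling, the moderation and the arrays used. Cre minus control (65 probe sets called) gave 5 on the deposited scale, 30 with median centring, 8 with the Cre arrays as 1 group, 19 without an intensity trend, 3 without moderation, 379 with array weights and 189 without CKO replicates 2 and 3. In the same order, leaving out the pooled group, CKO minus DH (157) gave 15, 65, 53, 1, 613 and 650, CKO minus control (632) gave 92, 362, 281, 296, 2393 and 1362, and the similar shifts (11) gave 1, 7, 2, 1, 121 and 39. The similar shifts were also 24 with an offset of 64, 6 with a ratio of 0.67, 5 with a margin of 1.3-fold and 21 with one of 2-fold. DH minus control (0) gave 8 with array weights and 2 without CKO replicates 2 and 3. The list members called (13) were 1 on the deposited scale, 1 with the Cre arrays as 1 group, 4 without a trend, 0 without moderation, 52 with weights and 32 without CKO replicates 2 and 3. Called neighbours of Nkx2-5 (0) were 1 with weights and 1 without CKO replicates 2 and 3, and Nkx2-5 passed in both, at -0.51 and -0.56. The causes were not tested.

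With a replicate block, which the labels do not support as a pairing, the counts were 38 for Cre minus control, 65 for CKO minus DH, 265 for CKO minus control and 5 for similar shifts, and DH minus control stayed at 0.

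Leaving out 1 array gave 10 to 117 calls for Cre minus control, 15 to 415 for CKO minus DH, 168 to 897 for CKO minus control, 0 for DH minus control, 1 to 31 similar shifts, 4 to 24 list members, 0 neighbours and -0.50 to -0.39 for Nkx2-5. Without CKO replicates 2 and 3, or with weights, all 65 probe sets were among those called, and 9 of the 11 similar shifts were among the similar ones. Of the 11, 10 stayed similar with an offset of 1 and 11 with one of 64. Only 3 did so with median centring, 2 without an intensity trend, and 0 on the deposited scale or without moderation.

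Of 2452 values of 107 genes under the alternatives, 1998 kept direction and side of the threshold, 394 lost a call, 52 gained one and 8 changed sign. The 8 were on uncalled genes. Averaging each gene's probe sets gave 0.07 for Cenpa, -0.02 for Eif2s3y, 0.02 for Ets1 and -0.11 for Tfrc. Leaving out 1 array gave -0.02 to 0.41 for Eif2s3y, -0.43 to 0.05 for Slc7a11, -0.12 to 0.41 for Uty and -0.09 to 0.41 for Xist. Searching every annotated start of a gene for the NKX2-5 core, an alternative chosen after seeing the data, left the count of similar-shift genes with a match at 0. No detection calls were at hand, so dim genes may be background.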
